A study of Rattus norvegicus with 12 samples.

Results

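The genes described here are antiviral interferon-stimulated genes, the genes that cells switch on when interferon tells them a virus may be near. A list of 60 such genes was followed across arrays of cultured cardiomyocytes. Each was looked up by its symbol among probe sets that carry a single gene symbol, and the probe set with the highest mean was taken where a gene had several. The array held 50 of the 60, of 14497 genes with a probe set. Of those 50, 45 passed the filter on low signal and were tested, of 10025 genes tested in all. The 5 members below the filter were Zbp1, Oas1k, Oas2, Cxcl9 and Cxcl11. The other 10, which were Ddx60, Gbp1, Gbp4, Trim34, Parp10, Parp12, Parp14, Xaf1, Pml and Cd274, are not analysed here.

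The cells were ventricular cardiomyocytes cultured from newborn Wistar rats, and the study set forms of the muscle transcription factor MEF2C against each other. Cultures received adenovirus for mef2Cγ+ (the γ+ group), mef2Cγ- (the γ- group) or mef2Cγ+23/24 (the 23/24 group, a name the labels do not define), or were left untreated (control), with 3 arrays in each of the 4 groups. In all groups the cells had spent 44 h in serum and then 24 h without it, per the labels. No group received a virus without an insert, so each comparison with control sets virus plus insert against no virus. Comparisons among the 3 vectors set virus against virus. The labels do not state a viral dose or how long the virus was left on the cells. Mef2c was not analysed here, and the level reached by each vector was not checked here. The arrays are called biological replicates, but nothing says they came from separate cell isolations, and p-values measure only the spread between these samples.

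Interferons are secreted proteins that bind receptors on the cell surface and activate a complex of transcription factors that includes IRF9. This complex binds a short DNA motif, the interferon-stimulated response element (ISRE), in the promoters of many genes. The products of those genes detect foreign RNA, stop translation, degrade RNA, trap viral particles, modify proteins with the small modifier ISG15 and call in leukocytes. RNA and DNA sensors inside the cell can switch on many of the same genes through IRF3 and IRF7, before or without interferon.

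The values are deposited log2 intensities. The lowest was 1.09 and the highest 13.89, and the medians of the arrays lay between 5.33 and 5.53. The log base is not stated and was taken from this range, so folds below rest on it. Exactly equal values occurred in all 21 pairs of arrays within the γ+ set, within the γ- set, or within the 23/24 and control arrays together, at 27 to 111 values a pair, and in 0 of 45 pairs across these sets. By this sign normalization was done in 3 sets apart from each other. The 23/24 group and control share a set, and every other comparison crosses sets. In comparisons that cross sets, separate normalization and vector cannot be told apart. Levels are not compared between genes, because different probe sets have different brightness.

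Where the promoters of the members could be read, most carried the ISRE. RefSeq promoters on the GRCr8 build, from 250 bases before to 50 bases after the annotated start, were found for 37 of the 45 tested members. The core of the ISRE, searched on either strand as GAAA followed by any 2 bases and a second GAAA, was present in 25 of 37 members (67.6%). It was present in 260 of 8309 tested genes with a promoter (3.13%) and in 1131 of all 27457 genes with a promoter (4.12%). A longer form, in which the second GAAA is followed by CT and which contains the core, was present in 12 of 37 members (32.4%), against 0.289% of tested genes. The GAS core TTCNNNGAA, another motif of interferon-responsive genes, was present in 8 members (21.6%), against 6.58% of tested genes. The MEF2 box was present in 1 member, Oas1b (2.7%), against 1.5% of tested genes. These shares describe letters in a window and were not tested. A match is not shown to be a bound site.

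The promoters of the 4 members with a core that had the largest change in the γ+ group are printed whole, to show where the core lies in members that were far higher there. Herc6, Rtp3 and Oasl, whose promoters held no core, and Ifit1 and Isg15 changed more than Oasl2. Each is written 5′ to 3′ on the strand of its gene, with the ISRE core in capitals. A core in the reverse direction reads TTTC, any 2 bases and TTTC. Rsad2 lies at chr6:48788071-48788370 on the minus strand, Cxcl10 at chr14:15988816-15989115 on the plus strand, Gbp5 at chr2:233910749-233911048 on the plus strand and Oasl2 at chr12:47383136-47383435 on the minus strand.
Rsad2: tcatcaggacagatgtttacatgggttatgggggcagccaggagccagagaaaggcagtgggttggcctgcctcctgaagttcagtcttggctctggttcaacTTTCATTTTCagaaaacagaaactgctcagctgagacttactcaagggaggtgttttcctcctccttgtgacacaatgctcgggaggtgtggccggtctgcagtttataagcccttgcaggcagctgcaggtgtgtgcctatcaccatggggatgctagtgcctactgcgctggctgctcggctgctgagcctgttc
Cxcl10: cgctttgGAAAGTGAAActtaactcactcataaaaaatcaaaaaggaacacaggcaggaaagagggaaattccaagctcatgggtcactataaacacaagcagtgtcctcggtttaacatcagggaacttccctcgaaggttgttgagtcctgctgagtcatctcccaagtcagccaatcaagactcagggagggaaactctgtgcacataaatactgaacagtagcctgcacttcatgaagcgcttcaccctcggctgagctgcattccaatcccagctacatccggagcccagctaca
Gbp5: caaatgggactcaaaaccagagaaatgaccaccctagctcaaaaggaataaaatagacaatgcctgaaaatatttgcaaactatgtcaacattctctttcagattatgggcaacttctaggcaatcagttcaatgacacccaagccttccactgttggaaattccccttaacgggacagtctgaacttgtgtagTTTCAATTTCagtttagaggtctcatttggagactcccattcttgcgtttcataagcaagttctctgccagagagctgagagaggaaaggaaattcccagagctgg
Oasl2: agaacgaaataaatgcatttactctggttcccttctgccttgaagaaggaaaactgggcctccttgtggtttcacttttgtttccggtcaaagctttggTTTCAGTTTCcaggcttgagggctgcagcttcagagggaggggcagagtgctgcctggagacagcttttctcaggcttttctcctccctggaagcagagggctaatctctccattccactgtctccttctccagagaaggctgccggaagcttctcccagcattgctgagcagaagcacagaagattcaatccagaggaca

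Shorter windows of the same promoters show how alike the cores of related genes are. The oligoadenylate synthetase genes Oas1b, Oas1i and Oas1a each held a pair of overlapping cores, and so did Trim21, an antibody receptor and ubiquitin ligase. Irgm, an immunity-related GTPase, and Eif2ak2, the RNA-activated kinase PKR, held 1 each. The last 3 lines are Oas3, Nmi and Lgals9, which held a core although they were not higher in the γ+ group. Capitals again mark the core bases, and each window is written on the strand of its gene.
Oas1b: ttcccggGAAATGGAAACTGAAAa
Oas1i: ctcccggGAAATCGAAACTGAAAa
Oas1a: ctctcggGAAATGGAAACTGAAAa
Trim21: ctgagagGAAACTGAAAGTGAAAt
Irgm: aggaataGAAACTGAAAccgactc
Eif2ak2: ccgccggGAAAACGAAAcagagag
Oas3: gagaggaGAAAACGAAAgtgaatg
Nmi: aataaacGAAAGTGAAAgaacggc
Lgals9: gctgtggTTTCTGTTTCctagctg

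In all, 34 cores were found in the 25 members, 9 of which held 2. Of the 34 cores, 32 began before the annotated start and 26 began within 110 bases before it. The core of Cxcl10 began 243 bases before the start and that of Rsad2 147 bases before it, while that of Gbp5 began 56 bases before it. Among members higher in the γ+ group than in control, 22 of 33 with a promoter held a core (66.7%), and among the other members 3 of 4 did. Herc6, Rtp3, Oasl, Cmpk2, Parp9 and Mx1 are examples without a core in this window whose levels were higher in the γ+ group.

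**Figure D1:**
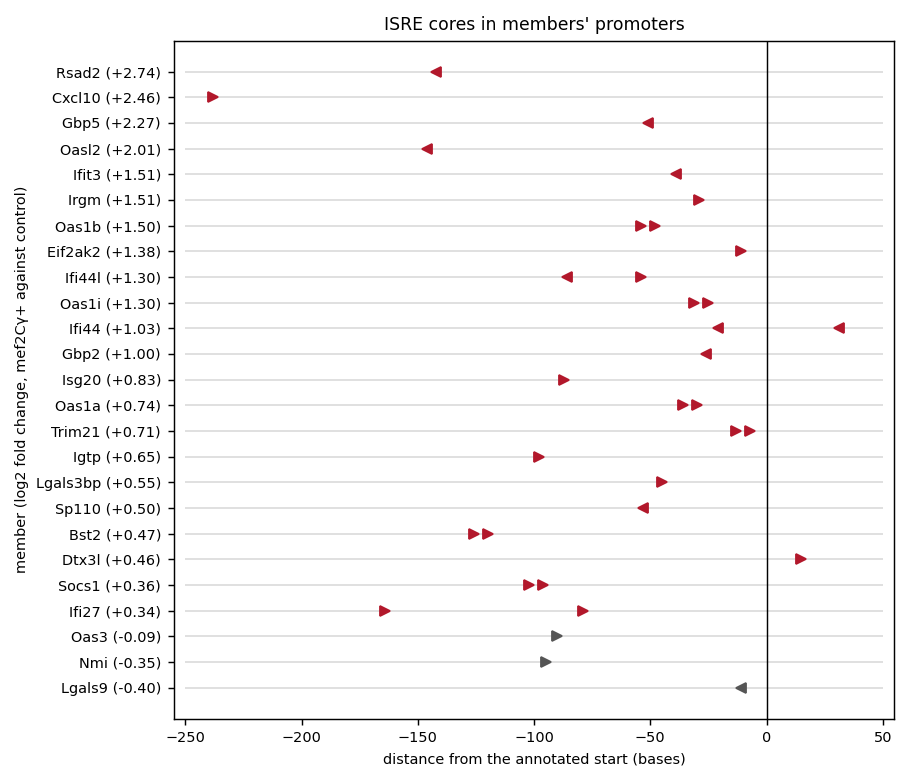
Position of each ISRE core in the promoter of each member that held one, in bases from the annotated start, with arrows giving the direction of the core relative to the gene. Red marks members higher in the γ+ group than in control and grey marks Oas3, Nmi and Lgals9; the number after each name is the log2 fold change, γ+ group over control. Of 34 cores, 26 begin within 110 bases before the start.

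In the γ+ cultures the interferon-stimulated genes were higher as a group. Of the 45 tested members, 40 were higher and 3 lower than in control at an adjusted p under 0.05 in limma, where 26.2% of all tested genes were called higher and 38.7% lower. The median log2 fold change of the members was 0.83, against -0.07 over all tested genes. A rise of at least 1 log2 unit was called in 21 members, against 3.1% of all genes. Among the 45, Ifi44l averaged 4.52 over the arrays outside the γ+ group, below the filter value of 4.78, and was tested only because of its γ+ level, so its call follows in part from the filter. With each array centred on its median, 40 members were higher and 2 lower, and 31.8% of all genes were higher and 30.3% lower.

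The γ+ arrays also stood apart in their cell type markers. All 8 cardiomyocyte markers were lower than in control, with mean levels of 10.67 to 10.71 in the γ+ arrays and 11.87 to 11.93 in the control arrays. All 8 fibroblast markers were lower, at 7.74 to 7.91 in the γ+ arrays and 9.27 to 9.29 in the control arrays, and all 6 measured endothelial markers were lower, at 5.62 to 5.74 in the γ+ arrays and 6.39 to 6.45 in the control arrays. Of 10 macrophage or leukocyte markers, 4 were below the filter (Ptprc, Adgre1, Itgam and C1qa), 4 of the 6 tested were lower and 0 were higher, with levels of 5.30 to 5.33 in the γ+ arrays and 5.66 to 5.68 in the control arrays. Of the 3 plasmacytoid dendritic cell markers, Siglech was not analysed here and 0 of the other 2 were called, with levels of 6.82 to 6.95 in the γ+ arrays and 6.92 to 7.20 in the control arrays. The part of these shifts in the results was not tested. In bulk RNA, fewer cells of a type and less RNA per cell cannot be told apart.

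**Figure D2:**
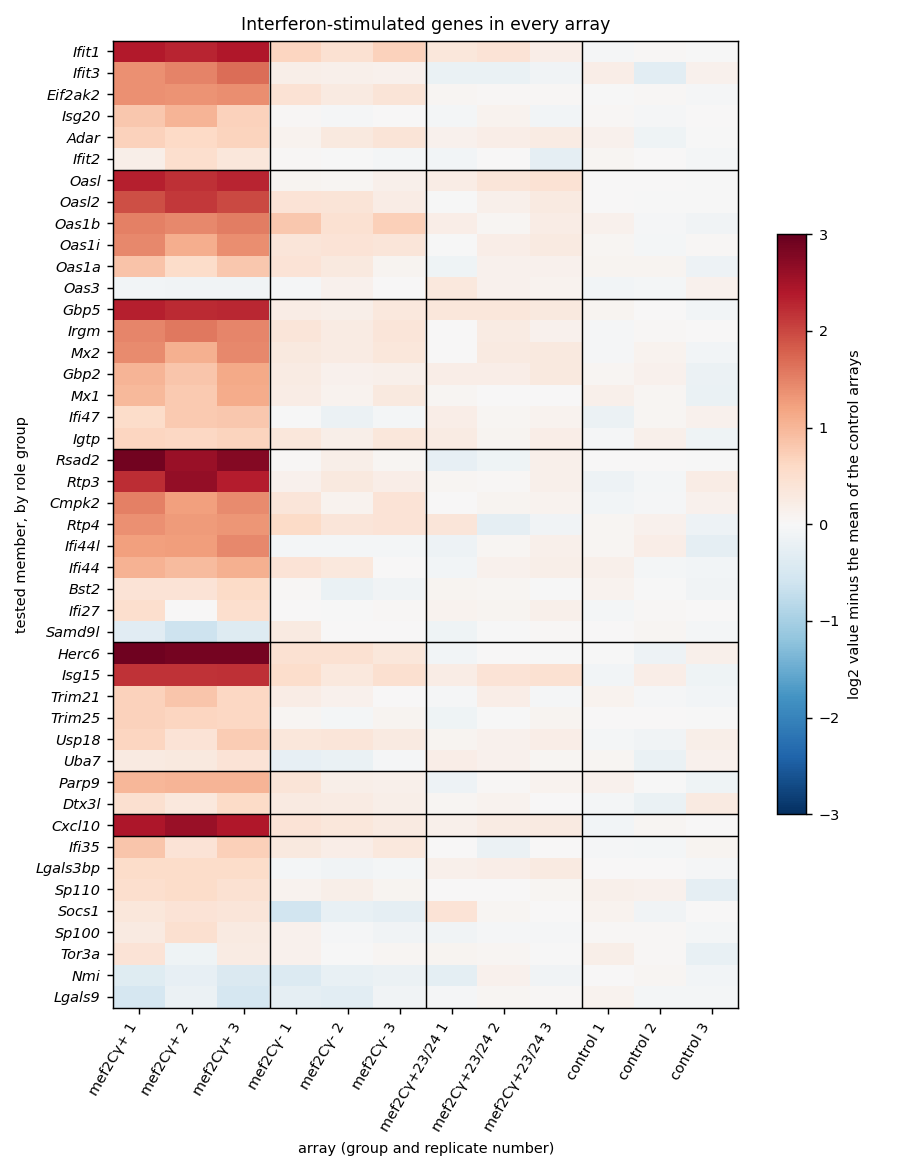
Log2 value minus the mean of the 3 control arrays for the 45 tested members (rows, grouped by role and ordered within each group by the change in the γ+ group) in the 12 arrays (columns). Red is above the control mean and blue below it. The 3 γ+ arrays are red in most rows, with Samd9l, Nmi and Lgals9 blue; the γ- arrays are faintly red in fewer rows.

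Proteins that bind or act on RNA were higher in the γ+ group in 6 of 6 tested members. Over all tested genes 26.2% were higher and 38.7% lower there, and the same shares apply to each role group below. Ifit1, which grips the end of RNA that lacks host cap marks, stood at 8.61, 8.52 and 8.64 in the γ+ arrays, at 6.88, 6.70 and 6.92 in the γ- arrays, at 6.57, 6.65 and 6.43 in the 23/24 arrays and at 6.21, 6.27 and 6.23 in the control arrays. The γ+ arrays lay far above all others, and the 4 groups did not overlap. Its log2 fold change in the γ+ group over control was 2.35 ± 0.08 (SE, n = 3 each, limma adjusted p = 2.2e-13), or 5.1-fold. Eif2ak2 encodes PKR, which blocks translation when it meets double-stranded RNA. It gave 9.13, 9.10 and 9.15 in the γ+ arrays, 8.19, 8.02 and 8.14 in the γ- arrays, 7.80, 7.79 and 7.79 in the 23/24 arrays and 7.74, 7.79 and 7.71 in the control arrays. Highest were the γ+ arrays, the γ- arrays came next with no overlap, and the 23/24 and control arrays overlapped. The change in the γ+ group over control was 1.38 ± 0.06 (SE).

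Ifit3, a partner of Ifit1, read 6.52, 6.63 and 6.83 in the γ+ arrays, 5.33, 5.30 and 5.27 in the γ- arrays, 4.96, 4.96 and 5.04 in the 23/24 arrays and 5.35, 4.83 and 5.27 in the control arrays. Only the γ+ arrays were clear of control, with a change of 1.51 ± 0.12 (SE). The remaining members of this role changed less in the γ+ group over control. Isg20, an RNA-degrading exonuclease, rose by 0.83, Adar, which edits double-stranded RNA, by 0.65 and Ifit2 by 0.34 (log2, limma adjusted p = 1.32e-07, 2.12e-06 and 0.0019). Ifit2, Ifit3 and Ifit1 lie next to one another on the chromosome, with 0 and 1 coding genes between them in the GRCr8 order, and their changes in the γ+ group were 0.34, 1.51 and 2.35.

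The oligoadenylate synthetases make the signal that activates RNase L, an enzyme that cuts RNA, and their like-named relatives Oasl and Oasl2 belong to the same family. Of 6 tested members, 5 were higher in the γ+ group and Oas3 was not called. Oasl was at 10.01, 9.87 and 9.96 in the γ+ arrays, 7.77, 7.74 and 7.84 in the γ- arrays, 7.91, 8.04 and 8.12 in the 23/24 arrays and 7.68, 7.68 and 7.67 in the control arrays. The γ+ arrays were well above all others, the 23/24 arrays were second, and no group overlapped another. Its change in the γ+ group over control was 2.27 ± 0.06 (SE, limma adjusted p = 4.46e-14). Oasl2 was at 8.72, 8.91 and 8.76 in the γ+ arrays, 7.20, 7.17 and 7.02 in the γ- arrays, 6.78, 6.94 and 7.05 in the 23/24 arrays and 6.80, 6.78 and 6.78 in the control arrays. Here the γ- arrays were second, and the 23/24 arrays overlapped both the γ- and the control arrays.

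Oas1b, a family member known in mice for resistance to flaviviruses, read 6.87, 6.79 and 6.90 in the γ+ arrays, 6.17, 5.81 and 6.07 in the γ- arrays, 5.55, 5.42 and 5.58 in the 23/24 arrays and 5.50, 5.32 and 5.25 in the control arrays. The γ+ and γ- arrays each stood clear, while the 23/24 and control arrays overlapped. The γ+ group was higher than control by 1.5 ± 0.1 (SE). Its neighbours Oas1i and Oas1a were higher by 1.30 and 0.74 (limma adjusted p = 4.07e-09 and 1.65e-05). Oas3, which lies in the same cluster with 2 coding genes between it and Oas1b, behaved differently. It was at 4.89, 4.86 and 4.87 in the γ+ arrays, 4.94, 5.09 and 4.97 in the γ- arrays, 5.28, 5.09 and 5.08 in the 23/24 arrays and 4.89, 4.90 and 5.10 in the control arrays. The γ+ arrays overlapped the control arrays, with a difference of -0.09 ± 0.10 (SE, limma adjusted p = 0.431). Related genes may not be fully separated by their probe sets. Such relatives are Oas1a, Oas1b and Oas1i, Mx1 and Mx2, the Ifit genes, Gbp2 and Gbp5, and Irgm, Igtp and Ifi47.

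The dynamin-like and immunity-related GTPases, which assemble on viral capsids or on the membranes around intracellular microbes, were higher in the γ+ group in 7 of 7 tested members. Gbp5, a guanylate-binding protein, was at 9.34, 9.23 and 9.27 in the γ+ arrays, 7.23, 7.18 and 7.32 in the γ- arrays, 7.33, 7.34 and 7.30 in the 23/24 arrays and 7.09, 7.01 and 6.91 in the control arrays. The γ+ arrays were clear of all others, and the γ- and 23/24 arrays overlapped each other just above control. The γ+ group was higher than control by 2.27 ± 0.06 (SE, limma adjusted p = 5.99e-14). Irgm read 8.29, 8.40 and 8.28 in the γ+ arrays, 7.18, 7.06 and 7.18 in the γ- arrays, 6.82, 7.07 and 6.96 in the 23/24 arrays and 6.78, 6.85 and 6.82 in the control arrays. All γ+ arrays were highest without overlap, and the difference from control was 1.51 ± 0.07 (SE).

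Mx2 read 9.02, 8.68 and 9.06 in the γ+ arrays, 7.91, 7.85 and 7.96 in the γ- arrays, 7.63, 7.88 and 7.91 in the 23/24 arrays and 7.58, 7.71 and 7.53 in the control arrays. Mx proteins are GTPases that block viral replication. The γ+ group was higher than control by 1.31 in Mx2 and by 0.96 in Mx1 (limma adjusted p = 4.49e-09 and 8.31e-07). Gbp2 was higher by 1.0, Ifi47 by 0.71 and Igtp by 0.65 (limma adjusted p = 3.76e-08, 7.12e-06 and 7.76e-06).

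Among viperin, tetherin and other membrane or cytosolic effectors, 8 of 9 tested members were higher in the γ+ group and 1 was lower. Rsad2 encodes viperin, which makes a nucleotide that ends viral RNA chains. It was at 9.69, 9.39 and 9.55 in the γ+ arrays, 6.83, 6.98 and 6.87 in the γ- arrays, 6.56, 6.68 and 6.96 in the 23/24 arrays and 6.81, 6.82 and 6.78 in the control arrays. Only the γ+ arrays were high, and the 23/24 arrays spanned the values of both other groups except 1 γ- array. The difference from control was 2.74 ± 0.09 (SE), or 6.69-fold. Cmpk2, the nucleotide kinase encoded next to Rsad2 with 0 coding genes between, was at 7.43, 7.15 and 7.34 in the γ+ arrays, 6.30, 6.04 and 6.34 in the γ- arrays, 5.95, 6.02 and 6.03 in the 23/24 arrays and 5.85, 5.89 and 6.05 in the control arrays. Its difference of 1.38 ± 0.09 (SE) was smaller than that of Rsad2, and its γ- arrays overlapped the control arrays.

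Rtp3, a receptor-transporting protein, read 8.25, 8.67 and 8.39 in the γ+ arrays, 6.16, 6.32 and 6.23 in the γ- arrays, 6.10, 6.06 and 6.18 in the 23/24 arrays and 5.87, 5.98 and 6.25 in the control arrays. Every γ+ array lay far above every other array, and the other 3 groups overlapped. In the same role group the γ+ arrays were higher than control in Rtp4 by 1.33, Ifi44l by 1.30, Ifi44 by 1.03, Bst2 by 0.47 and Ifi27 by 0.34 (limma adjusted p between 1e-07 and 0.00472). Ifi44l was tested only because of its γ+ level, so its calls in the γ+ comparisons follow in part from the filter. Bst2 encodes tetherin, which holds new virus particles at the cell surface. Ifi27 was the 1 member of these whose γ+ arrays overlapped the control arrays, with 11.12, 10.63 and 11.13 in the γ+ arrays and 10.56, 10.65 and 10.64 in the control arrays.

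Samd9l, a restriction factor that inhibits translation, went the other way. It was at 7.06, 6.77 and 7.02 in the γ+ arrays, 7.67, 7.42 and 7.41 in the γ- arrays, 7.28, 7.39 and 7.44 in the 23/24 arrays and 7.40, 7.45 and 7.35 in the control arrays. All 3 γ+ arrays lay below all other 9 arrays. The γ+ group differed from control by -0.45 ± 0.09 (SE, limma adjusted p = 0.000287).

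ISG15 is a small protein that is joined to other proteins, and its conjugation enzymes and related ubiquitin ligases were higher in the γ+ group in 6 of 6 tested members. Herc6, an ISG15 ligase in mice, was at 8.77, 8.71 and 8.71 in the γ+ arrays, 6.30, 6.31 and 6.20 in the γ- arrays, 5.77, 5.87 and 5.83 in the 23/24 arrays and 5.84, 5.70 and 6.01 in the control arrays. Again the γ+ arrays came first and the γ- arrays second, and the 23/24 and control arrays overlapped. The γ+ group was higher than control by 2.88 ± 0.08 (SE, limma adjusted p = 3.49e-14), or 7.35-fold, the largest difference among the tested members. Isg15 itself was at 9.46, 9.46 and 9.47 in the γ+ arrays, 7.81, 7.61 and 7.76 in the γ- arrays, 7.52, 7.70 and 7.75 in the 23/24 arrays and 7.21, 7.49 and 7.17 in the control arrays. All 9 arrays given virus lay above all 3 control arrays, and the γ- and 23/24 arrays overlapped each other.

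Trim25, the ubiquitin ligase that assists the RNA sensor RIG-I, read 8.76, 8.72 and 8.71 in the γ+ arrays, 8.13, 8.01 and 8.16 in the γ- arrays, 7.95, 8.07 and 8.17 in the 23/24 arrays and 8.08, 8.10 and 8.07 in the control arrays. Only the γ+ arrays were separate. Trim21 was higher in the γ+ group by 0.71, Usp18, which removes ISG15 and dampens the interferon receptor, by 0.61, and Uba7, the enzyme that activates ISG15, by 0.32 (limma adjusted p = 2.95e-06, 2e-05 and 0.00683).

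Parp9 and its partner Dtx3l, an ADP-ribosyltransferase pair encoded side by side, were both higher in the γ+ group. Parp9 read 7.78, 7.81 and 7.81 in the γ+ arrays, 7.17, 6.96 and 6.95 in the γ- arrays, 6.63, 6.83 and 6.89 in the 23/24 arrays and 6.92, 6.78 and 6.67 in the control arrays. Dtx3l read 6.32, 6.15 and 6.41 in the γ+ arrays, 6.11, 6.09 and 6.01 in the γ- arrays, 5.89, 5.95 and 5.84 in the 23/24 arrays and 5.77, 5.64 and 6.10 in the control arrays. The γ+ arrays of both genes lay above all control arrays, by 1.01 in the mean for Parp9 and by 0.46 for Dtx3l (limma adjusted p = 2.25e-08 and 0.00119).

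Cxcl10, the chemokine that draws in T cells, was the 1 tested member of the chemokine trio. It was at 10.75, 10.91 and 10.73 in the γ+ arrays, 8.73, 8.66 and 8.59 in the γ- arrays, 8.48, 8.57 and 8.61 in the 23/24 arrays and 8.25, 8.40 and 8.34 in the control arrays. The γ+ arrays were more than 2 log2 units above control, and all arrays given virus lay above all control arrays. The difference was 2.46 ± 0.06 (SE), or 5.51-fold. Its relative Cxcl11 was below the filter, with 5.49, 5.48 and 5.09 in the γ+ arrays, 4.73, 4.49 and 4.72 in the γ- arrays, 4.32, 4.17 and 4.29 in the 23/24 arrays and 4.14, 3.90 and 4.12 in the control arrays. In a limma fit without the filter the γ+ group was higher by 1.30 (adjusted p = 6.85e-08) and the γ- group by 0.59 (adjusted p = 0.00693). Cxcl9, also below the filter, lay at 3.39, 3.30 and 3.25 in the γ+ arrays, 3.41, 3.41 and 3.54 in the γ- arrays, 3.14, 2.90 and 2.94 in the 23/24 arrays and 2.73, 2.88 and 2.88 in the control arrays. The γ- mean was the highest there, and all these values were near the low end of the scale. The γ+ and γ- arrays lay above the 23/24 and control arrays. The 23/24 and control arrays share a normalization set, while the γ+ and the γ- arrays each form their own, so this division crosses sets.

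The regulators and the nuclear, secreted and surface proteins had the smallest share of higher calls among the role groups. In the γ+ group 5 of 8 tested members were higher (62.5%) and 2 lower (25.0%), against 26.2% and 38.7% of all genes. Lgals3bp, a secreted glycoprotein, read 11.13, 11.14 and 11.13 in the γ+ arrays, 10.53, 10.47 and 10.53 in the γ- arrays, 10.73, 10.79 and 10.85 in the 23/24 arrays and 10.60, 10.59 and 10.55 in the control arrays. The 4 groups did not overlap, with γ- the lowest. The γ+ group was higher than control by 0.55 ± 0.05 (SE, limma adjusted p = 1.87e-08). Ifi35 was higher by 0.65, the nuclear body proteins Sp110 and Sp100 by 0.50 and 0.33, and Socs1, which shuts interferon signalling off, by 0.36. Ifi35 was at 6.09, 5.66 and 5.96 in the γ+ arrays and 5.55, 5.44 and 5.56 in the γ- arrays. It was at 5.27, 5.08 and 5.27 in the 23/24 arrays and 5.22, 5.20 and 5.34 in the control arrays. Sp110 was at 7.89, 7.95 and 7.85 in the γ+ arrays and 7.50, 7.57 and 7.48 in the γ- arrays. It was at 7.40, 7.40 and 7.46 in the 23/24 arrays and 7.54, 7.53 and 7.11 in the control arrays.

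Nmi, the partner protein of Ifi35, was lower. It was at 5.02, 5.13 and 4.94 in the γ+ arrays, 4.97, 5.16 and 5.20 in the γ- arrays, 5.08, 5.51 and 5.28 in the 23/24 arrays and 5.39, 5.45 and 5.30 in the control arrays. The γ+ group differed from control by -0.35 ± 0.11 (SE, limma adjusted p = 0.0115), a call that was lost with median centring or quantile normalization. Lgals9, the sugar-binding galectin-9, was at 9.31, 9.65 and 9.31 in the γ+ arrays, 9.56, 9.51 and 9.72 in the γ- arrays, 9.78, 9.88 and 9.86 in the 23/24 arrays and 9.93, 9.76 and 9.76 in the control arrays. All γ+ arrays lay below all control arrays, with a difference of -0.40 ± 0.09 (SE, limma adjusted p = 0.000669), and its dimmer second probe set differed by -0.54. Tor3a, an ATPase of the endoplasmic reticulum, was not called, with 7.0, 6.45 and 6.84 in the γ+ arrays and 6.77, 6.63 and 6.37 in the control arrays. It was at 6.73, 6.57 and 6.65 in the γ- arrays and 6.68, 6.64 and 6.58 in the 23/24 arrays. The γ+ group differed from control by 0.17 ± 0.12 (SE, limma adjusted p = 0.227), and the groups overlapped.

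**Figure D3:**
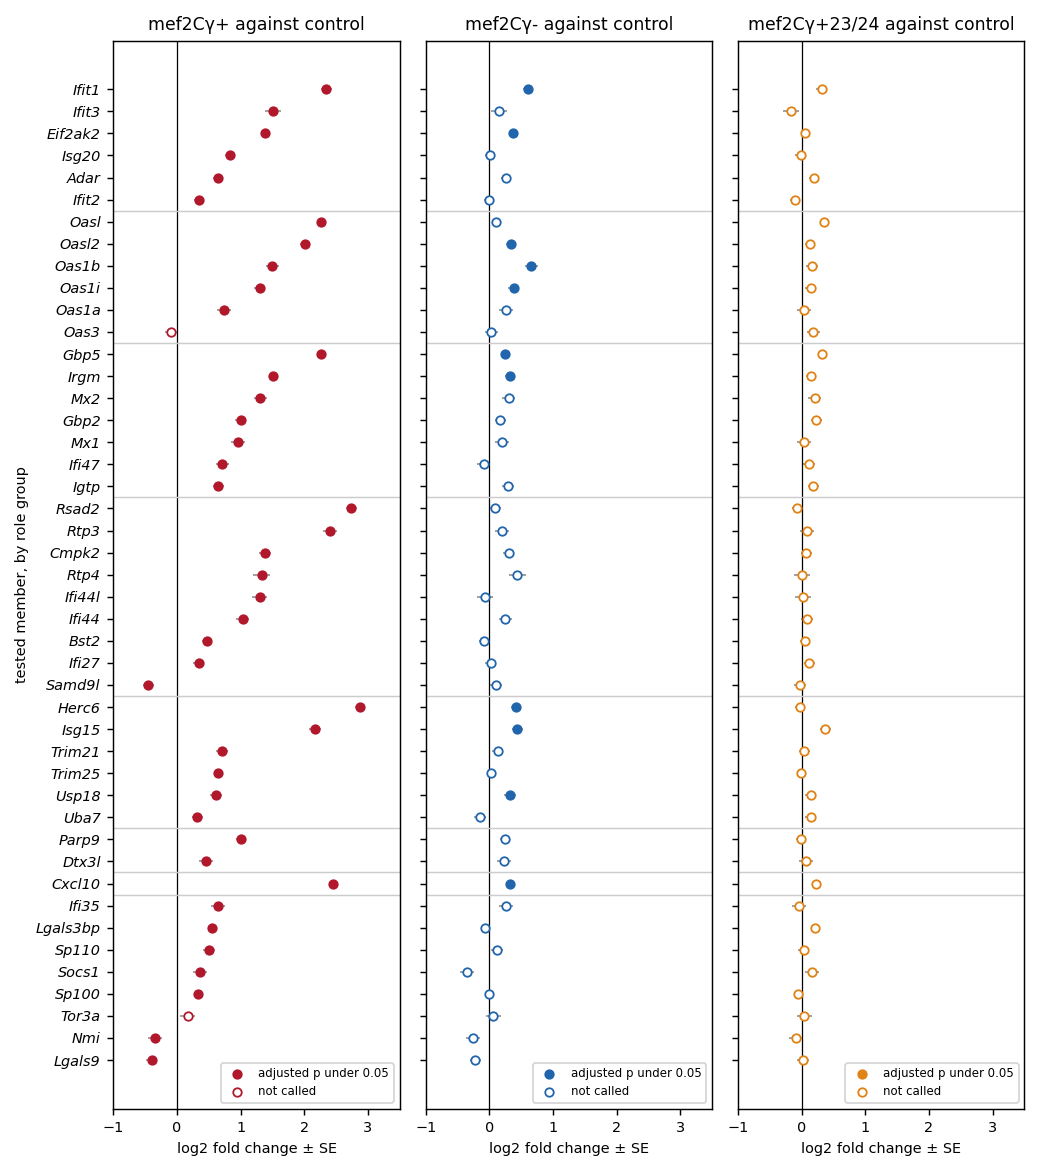
Log2 fold change with its SE for the 45 tested members in the γ+ group, the γ- group and the 23/24 group, each against control (3 arrays each, limma), on 1 scale. Filled points have an adjusted p under 0.05: 43 in the γ+ group, 11 in the γ- group and 0 in the 23/24 group.

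In the γ- cultures a smaller set of members was higher, and by less. Of 45 tested members 11 were higher than control and 0 lower, where 3.06% of all tested genes were called higher and 3.88% lower. The median log2 fold change was 0.20, against -0.01 over all genes, and 24 members (53.3%) had an unadjusted p under 0.05, against 22.8% of all genes. Of these 24, 21 lay above control and 3 below it. The 11 were Oas1b (0.66), Ifit1 (0.60), Isg15 (0.44), Herc6 (0.42), Oas1i (0.38), Eif2ak2 (0.37), Oasl2 (0.34), Cxcl10 (0.33), Irgm (0.32), Usp18 (0.32) and Gbp5 (0.24), in log2 units. Their limma adjusted p ran from 0.000476 for Ifit1 to 0.0467 for Usp18. Their γ- arrays all lay above all control arrays, which follows in part from their being called. The share of all genes with such a separation was not counted. Oas1i, whose values have not been given, was at 7.78, 7.42 and 7.73 in the γ+ arrays, 6.71, 6.74 and 6.70 in the γ- arrays, 6.32, 6.54 and 6.60 in the 23/24 arrays and 6.40, 6.27 and 6.37 in the control arrays. Of the 11 calls, 6 survived the removal of any single array, namely Cxcl10, Eif2ak2, Herc6, Ifit1, Isg15 and Oas1b. The count fell to 7 without γ- array 1 or without γ- array 3. There 1.09% and 1.16% of all genes were higher, against 3.06% with all arrays, and 1.66% were lower in both.

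Members with the largest changes in the γ+ group were not all among these. Rsad2, Rtp3 and Oasl, each more than 2 log2 units above control in the γ+ group, differed from control in the γ- group by 0.09 ± 0.09, 0.20 ± 0.11 and 0.11 ± 0.06 (SE, limma adjusted p = 0.633, 0.268 and 0.327). Socs1 lay below control in the γ- group by 0.36, with 4.98, 5.33 and 5.29 in the γ- arrays and 5.67, 5.45 and 5.57 in the control arrays, and was not called (limma adjusted p = 0.0662).

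In the 23/24 cultures no member was called, nor was any other gene. The count was 0 of 45 members by limma at an adjusted p under 0.05, against 0.0% of the 10025 genes in either direction. At an unadjusted p under 0.05 there were 8 members (17.8%), against 8.97% of all genes. These 8 were Oasl, Gbp5, Lgals3bp, Isg15, Ifit1, Cxcl10, Gbp2 and Adar, and their differences from control were 0.19 to 0.37 log2 units, all positive. In 7 of the 8, all but Adar, the 23/24 arrays lay above all control arrays. Members picked by a low p tend to separate in this way, and the share of all genes that did was not counted. Oasl had the lowest adjusted p of these, 0.209 with a difference of 0.35 ± 0.06 (SE), and its values have been given above. With array weights in limma 7 members were called higher, where 0.678% of all genes were, and with quantile normalization 1 was, Oasl. Of the 45 members 33 had a mean above control (73.3%), against 39.7% of all genes, and the median difference was 0.07, against -0.02 over all genes.

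**Figure D4:**
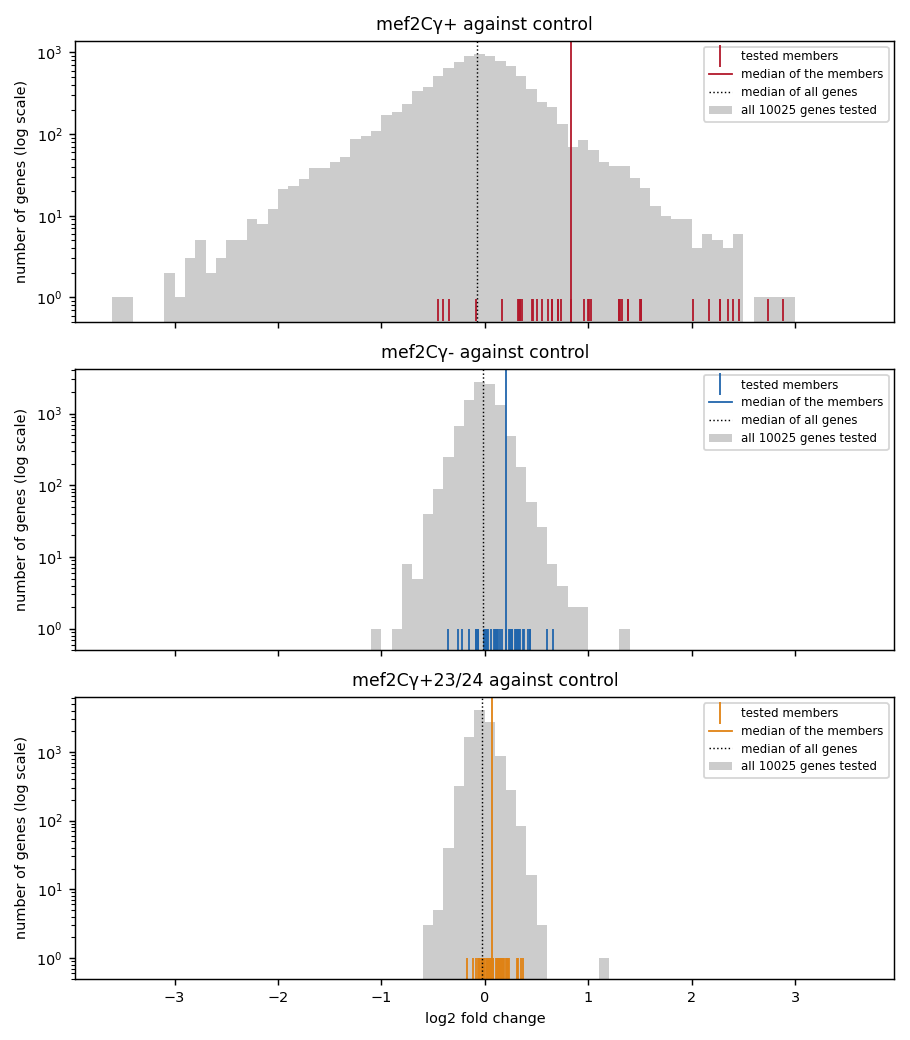
Distribution of log2 fold changes over all 10025 tested genes (grey, number of genes on a log scale) with the 45 tested members as ticks, for the γ+, γ- and 23/24 groups, each against control. The coloured line is the median of the members (0.83, 0.20 and 0.07) and the dotted line that of all genes (-0.07, -0.01 and -0.02).

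The vector groups were also set against each other, where every culture had received virus. Of the 45 members 39 were higher in the γ+ group than in the γ- group and 1 was lower, where 26.7% of all genes were higher and 37.5% lower, and the median difference was 0.78, against -0.06 over all genes. A rise of at least 1 log2 unit was called in 15 members, against 2.94% of all genes. Samd9l was the lower one (-0.55), and Oas3, Dtx3l, Nmi, Lgals9 and Tor3a were not called. The γ+ group exceeded the γ- group by 2.65 ± 0.09 in Rsad2, by 2.46 ± 0.08 in Herc6 and by 0.84 ± 0.10 in Oas1b (SE, limma adjusted p = 8.35e-13, 2.61e-13 and 1.32e-06). In the γ+ group against the 23/24 group, 37 members were higher and 4 lower, where 28.0% of all genes were higher and 37.9% lower, with a median difference of 0.77 against -0.07 over all genes. At least 1 log2 unit was reached by 19 members, against 3.32% of all genes. Ifi44l, tested only because of its γ+ level, is among the members counted in these γ+ comparisons. The 4 lower were Lgals9 (-0.42), Samd9l (-0.42), Oas3 (-0.27) and Nmi (-0.26), and the last 2 calls were lost with median centring. Median centring moved the median of all genes in that comparison to 0.07, against -0.07 without it.

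Between the γ- and the 23/24 group, 5 members were higher and 3 lower in the γ- group, where 4.16% of all genes were higher and 3.94% lower. The higher members were Oas1b (0.50), Herc6 (0.45), Rtp4 (0.45), Eif2ak2 (0.32) and Ifit1 (0.28), and the lower ones were Socs1 (-0.52), Lgals3bp (-0.28) and Oasl (-0.24), with limma adjusted p from 0.00238 to 0.0467. Socs1 was at 4.98, 5.33 and 5.29 in the γ- arrays and 5.96, 5.62 and 5.57 in the 23/24 arrays, with no overlap. With median centring 7 members were higher and 2 lower in this comparison, where 6.96% of all genes were higher and 1.98% lower. The calls of Oas1b, Herc6, Eif2ak2 and Lgals3bp survived the removal of any single array. Without γ- array 1 the count fell to 4, and without γ- array 3 or 23/24 array 3 it fell to 5. In these runs 1.24%, 1.5% and 2.91% of all genes were higher and 1.4%, 1.69% and 2.34% lower.

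**Figure D5:**
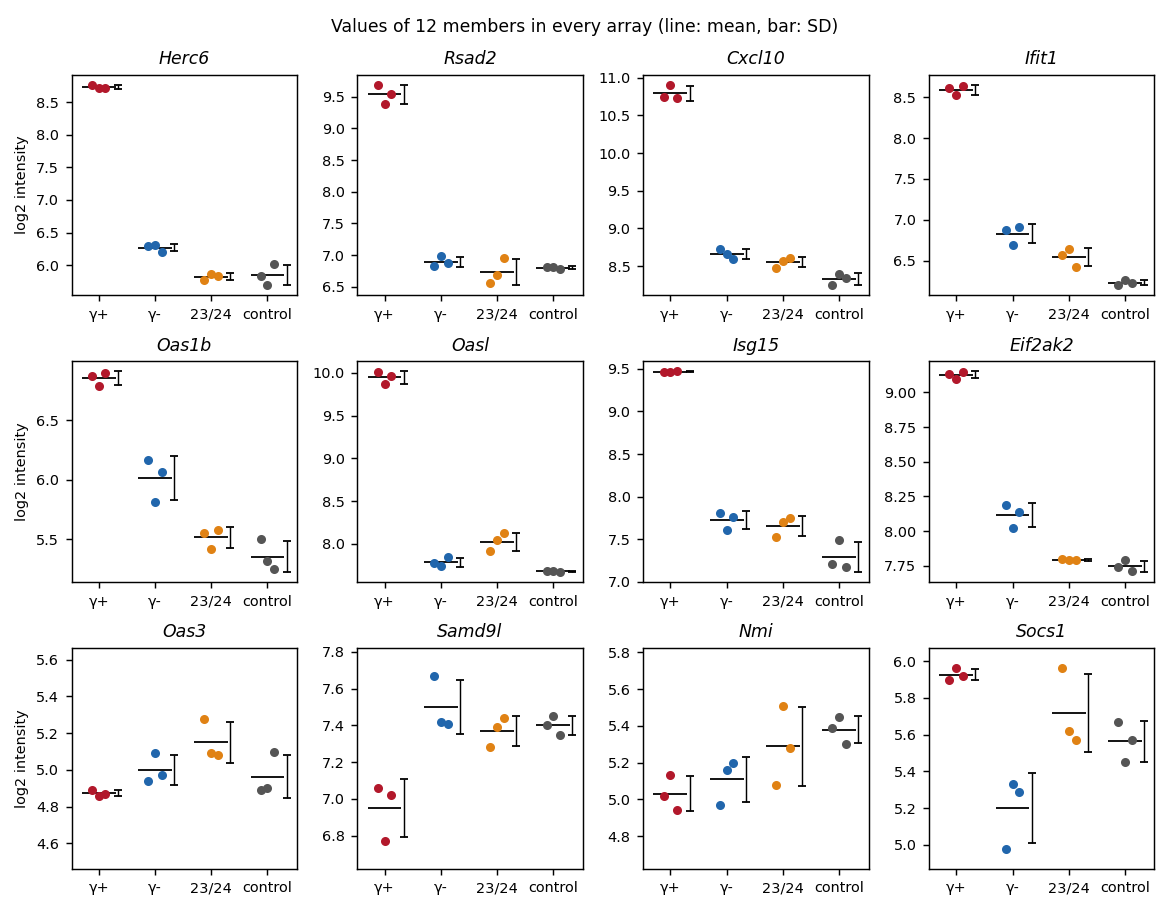
Log2 intensity of 12 members in every array, by group, with the mean (line) and SD (bar) of the 3 arrays. Herc6, Rsad2, Cxcl10, Ifit1 and Oasl are more than 2 log2 units higher in the γ+ group than in control. Herc6, Cxcl10, Ifit1, Oas1b, Isg15 and Eif2ak2 are also called higher in the γ- group than in control. Oas3, Samd9l and Nmi are not raised in the γ+ group.

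The order of the 4 group means was counted as a description. The γ+ group had the highest mean in 41 of 45 members (91.1%), against 35.9% of all tested genes. The γ+ group came first and the γ- group second in 29 members (64.4%), against 14.8% of all genes. The full order γ+, γ-, 23/24, control from high to low was seen in 21 members (46.7%), against 5.59% of all genes. The means of neighbours in this order often did not differ beyond their spread, as the counts of calls above show. Array by array, the median of the members relative to control was 0.85, 0.83 and 0.81 in the γ+ arrays, 0.23, 0.17 and 0.15 in the γ- arrays, 0.05, 0.09 and 0.10 in the 23/24 arrays and 0.02, 0.01 and -0.03 in the control arrays.

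The genes that sense viruses and carry the interferon signal were followed from a separate list of 41, of which 28 were tested, 5 were below the filter and 8 were not analysed here, among them Tyk2, Ifnar2, Ddx58, Ticam1, Mb21d1, Tmem173 and Nlrc5. In the γ+ group 14 of the 28 were higher than control and 10 lower (35.7%), against 26.2% and 38.7% of all genes, and their median difference was 0.25, against -0.07 over all genes. Irf7, the transcription factor that amplifies interferon production, was at 9.68, 9.80 and 9.58 in the γ+ arrays, 7.83, 7.80 and 8.02 in the γ- arrays, 7.78, 7.92 and 7.93 in the 23/24 arrays and 7.59, 7.66 and 7.69 in the control arrays. The γ+ arrays were higher than control by 2.04 ± 0.07 (SE, limma adjusted p = 9.06e-13), and the γ- and 23/24 arrays overlapped each other. Ifih1, the double-stranded RNA sensor MDA5, was at 8.77, 8.57 and 8.79 in the γ+ arrays, 7.43, 7.49 and 7.50 in the γ- arrays, 7.49, 7.55 and 7.41 in the 23/24 arrays and 7.39, 7.39 and 7.29 in the control arrays. Dhx58, the related helicase LGP2, was at 6.34, 6.35 and 6.31 in the γ+ arrays, 5.36, 5.35 and 5.44 in the γ- arrays, 5.42, 5.24 and 5.49 in the 23/24 arrays and 5.07, 5.23 and 5.17 in the control arrays. In both genes the γ+ arrays lay above all others, by 1.35 and 1.18 over control in the mean.

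Of the factors that bind the ISRE, Stat2 was higher in the γ+ group by 0.88 and Irf9 by 0.47 (limma adjusted p = 4.91e-09 and 0.00088). Irf9 was at 8.09, 7.86 and 8.09 in the γ+ arrays, 7.72, 7.73 and 7.77 in the γ- arrays, 7.29, 7.52 and 7.64 in the 23/24 arrays and 7.69, 7.64 and 7.29 in the control arrays. The antigen-processing genes Tap1, Psmb9 and Psmb8, which interferons also induce, were higher by 0.98, 0.73 and 0.53.

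The share of the list that was lower in the γ+ group was close to that of all genes. The lower genes included Ifngr1, Il15 and Jak1, while the kinase Tbk1 and the receptor Tlr3 were higher than control by 0.33 and 0.34 (limma adjusted p = 6.98e-05 and 0.0342). Ifngr1, a chain of the interferon-gamma receptor, was at 8.37, 8.24 and 8.30 in the γ+ arrays, 8.87, 8.84 and 8.85 in the γ- arrays, 9.01, 9.08 and 9.15 in the 23/24 arrays and 9.02, 9.06 and 8.86 in the control arrays. Il15, a cytokine, was at 4.33, 4.07 and 4.17 in the γ+ arrays, 5.27, 5.04 and 5.0 in the γ- arrays, 5.33, 5.22 and 5.11 in the 23/24 arrays and 5.06, 5.19 and 5.09 in the control arrays. Jak1, the kinase of the receptor, was at 9.29, 9.07 and 9.31 in the γ+ arrays, 9.54, 9.51 and 9.49 in the γ- arrays, 9.67, 9.65 and 9.67 in the 23/24 arrays and 9.61, 9.71 and 9.73 in the control arrays. In these 3 genes the γ+ arrays lay below all others, and their differences from control were -0.68, -0.92 and -0.46 (limma adjusted p = 8.1e-08, 9.91e-07 and 7.23e-06). Ifnar1, a chain of the type I interferon receptor, and Mavs, the adaptor of the RNA sensors, were lower in the γ+ group, with differences of -0.47 and -0.51. With median centring the list held 15 higher and 6 lower genes, where 31.8% of all genes were higher and 30.3% lower.

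In the γ- and 23/24 groups 0 of the 28 were called by limma, where 3.06% of all genes were called higher and 3.88% lower in the γ- group and 0.0% in the 23/24 group. At an unadjusted p under 0.05 there were 9 in the γ- group (32.1%) and 4 in the 23/24 group (14.3%), against 22.8% and 8.97% of all genes. The lowest adjusted p in the γ- group belonged to Irf7 (0.24, adjusted p = 0.0619), Stat2 (0.19) and Irf3 (0.23) among positive differences and to Ifnar1 (-0.24), Psmb8 (-0.37) and Mavs (-0.24) among negative ones. In the 23/24 group they belonged to Irf7 (0.24, adjusted p = 0.375), Dhx58 (0.23) and Socs3 (0.25), and to Ifnar1 (-0.20), Mavs (-0.14) and Ifngr2 (-0.11).

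The interferon genes themselves gave low signal. Ifnb1, the gene of interferon beta, was below the filter, with 3.54, 3.33 and 3.23 in the γ+ arrays, 3.32, 3.36 and 3.25 in the γ- arrays, 2.57, 2.95 and 2.72 in the 23/24 arrays and 2.81, 2.56 and 2.93 in the control arrays. The γ+ and γ- arrays, each a normalization set of their own, lay above the 23/24 and control arrays, which share a set. This division crosses sets, so separate normalization and vector cannot be told apart. In the fit without the filter the differences from control were 0.60 in the γ+ group and 0.55 in the γ- group (limma adjusted p = 0.000607 and 0.0139). Ifna4, an interferon alpha gene, divided the arrays in the same way but in the opposite direction, with 3.98, 4.01 and 3.86 in the γ+ arrays, 4.01, 4.22 and 4.04 in the γ- arrays, 4.61, 4.61 and 4.49 in the 23/24 arrays and 4.69, 4.45 and 4.66 in the control arrays. Here too, separate normalization and vector cannot be told apart. Ifng showed no such division, with 3.68, 3.79 and 3.72 in the γ+ arrays and 3.59, 3.70 and 3.88 in the control arrays.

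The remaining members below the filter were Zbp1, Oas1k and Oas2. Zbp1, a sensor of Z-form nucleic acid, was at 4.56, 4.41 and 4.49 in the γ+ arrays, 4.91, 4.74 and 4.90 in the γ- arrays, 4.90, 4.74 and 4.81 in the 23/24 arrays and 4.73, 4.69 and 5.26 in the control arrays. The γ+ arrays were the lowest there, with a difference of -0.40 in the fit without the filter (limma adjusted p = 0.0134). Oas1k and Oas2 differed from control in the γ+ group by 0.16 and 0.05 in that fit, and neither was called (limma adjusted p = 0.346 and 0.693).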

How the data were processed

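RNA from 12 cultures, 3 in each of 4 groups taken from the sample titles, was measured on Affymetrix rat gene arrays. The authors deposited 1 table of log2 values for all arrays. Per the submitters' processing notes the tool was MAS5, with no version; the sources used here do not give the normalization, log base or summarization. The number of arrays limits the precision. Of 28826 probe sets, 15209 had 1 symbol in the probe annotation, 306 had several and 13311 had none. Genes with a mean over the 12 arrays above the 40th percentile (4.78) were kept. Linear models were fitted to all 12 arrays with limma 3.58.1 (lmFit, then eBayes using an intensity trend; R 4.3.3), with Benjamini-Hochberg adjustment over the 10025 genes within each comparison and a call at an adjusted p under 0.05. The procedure was run on simulated data with independent noise, in which few genes changed and only in the γ+ arrays. That setting does not cover the many changes or the separate normalization seen here. The members, lists, tests, alternatives and the naming rule were chosen with earlier results of these data known. By that rule every array is given for the 3 members of lowest adjusted p in each role group, members lower or not called in the γ+ group, and up to 10 called in the γ- group; for the signalling list, for the 3 of lowest adjusted p in each direction and for Irf9 and Ifnb1. Promoters came from RefSeq (GRCr8). Equally numbered arrays did not deviate together (correlations of -0.223 to 0.124, 1 of 18 above 0.1), so the numbers were not used as pairs. Alternatives were median centring, quantile normalization, other filters, the mean over probe sets, no intensity trend, array weights, a replicate block, the compared arrays alone, a minimum change of 1 log2 and leaving out single arrays.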

Additional observations from a re-analysis of the deposited data

How the results depend on the processing

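No member that was called changed direction under any alternative run. A minimum change of 1 log2 unit lowered the counts of called members to 21 in the γ+ group against control (43 without it), 15 against the γ- group (40) and 19 against the 23/24 group (41), to 0 in the γ- group against control (11) and 0 against the 23/24 group (8), and to 3 for the signalling list in the γ+ group (24), by its construction. Array weights gave 22 members in the γ- group against control, 7 in the 23/24 group against control (0 without weights) and 18 in the γ- group against the 23/24 group, and 8 and 1 genes of the signalling list in the γ- and 23/24 groups (0 and 0). With these weights 7.3% of all genes were higher and 10.1% lower in the γ- group against control. In the 23/24 group against control 0.678% were higher and 1.52% lower. In the γ- group against the 23/24 group 13.7% were higher and 11.5% lower. The compared arrays alone gave 13 members in the γ- group against the 23/24 group and 6 signalling genes in the γ- group. There 9.81% of all genes were higher and 7.75% lower against the 23/24 group, and 5.91% and 7.79% against control. Quantile normalization gave 1 member in the 23/24 group and 2 signalling genes in the γ- group, the 60th percentile filter 5 members in the γ- group against the 23/24 group, where fewer members were tested, and no filter 3 signalling genes in the γ- group. With quantile normalization 3.98% of all genes were higher and 3.84% lower in the γ- group against control, and with no filter 3.9% and 5.5%. With the 60th percentile filter 4.37% were higher and 2.23% lower in the γ- against the 23/24 group. For the other changes the cause was not tested. The longer ISRE form was in 12 promoters (25 with the core).

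Leaving out 1 array gave 42 to 44 called members in the γ+ group against control, 7 to 9 in the γ- group against control, 0 in the 23/24 group, 38 to 42 in the γ+ against the γ- group, 39 to 42 in the γ+ against the 23/24 group and 4 to 6 in the γ- against the 23/24 group, and 20 to 25, 0 to 1 and 0 signalling genes in the γ+, γ- and 23/24 groups. In these runs 23.8% to 28.4% of all genes were higher and 35.5% to 38.3% lower in the γ+ group against control. In the γ- group against control 1.09% to 1.56% were higher and 1.34% to 1.87% lower. In the γ+ against the γ- group 24.1% to 29.2% were higher and 34.3% to 37.0% lower. In the γ- against the 23/24 group 1.24% to 2.91% were higher and 1.4% to 2.34% lower. Without any single γ+ array Ifi44l fell below the filter. With a replicate block the members called numbered 43, 11, 0, 40, 42 and 7 in the same order of comparisons; each array correlated best with its own number in 4 of 36 cases, so the numbers are not taken as pairs. Over all genes the γ+ group against control had 2631 higher and 3878 lower calls, and 3187 and 3041 with median centring; against the 23/24 group 2804 and 3795, and 3703 and 2628; the γ- against the 23/24 group 417 and 395, and 698 and 198.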
